A study of Mus musculus with 16 samples.

Results

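B lymphocytes carry an antigen receptor made of an immunoglobulin heavy chain, a light chain and a pair of signalling proteins, and they mature in the bone marrow from progenitors that build a surrogate receptor before a light chain is made. Plasma cells, the secreting end of the lineage, make large amounts of immunoglobulin RNA from 1 rearranged heavy-chain and 1 rearranged light-chain gene each. Peripheral ganglia hold few B cells next to neurons, satellite glia and Schwann cells, and the vessels and membranes around a ganglion can carry blood and marrow-derived cells into a dissected sample.

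The genes described here were 9 of the 52636 genes in the count files, chosen by name as B-lineage genes with earlier results of these same libraries in view. Ighm and Igkc encode the constant regions of the mu heavy chain and the kappa light chain. Cd79a and Cd79b are the signalling pair of the B-cell receptor, Cd22 is an inhibitory coreceptor and Ms4a1 encodes CD20. Pax5 is the transcription factor that holds B-cell identity, Vpreb3 belongs to the surrogate light chain family, and Ly6d marks early B-lineage progenitors. Because their counts and normalized levels (CPM, counts scaled to the library size) in these libraries chose them, the values of the 9 genes are given as a description, and nothing is read from their calls where these are listed. Of the 9, 6 passed the filter on low counts and were among the 21371 genes tested, and Ms4a1, Vpreb3 and Ly6d did not pass it.

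Bulk RNA sequencing had been made from lumbar dorsal root ganglia (DRGs) of male C57Bl6/J mice aged 3 to 4 months, in 4 groups of 4 mice with 1 library a mouse. Mice had received either tibial spared nerve injury (SNI), in which the common peroneal and sural branches of the sciatic nerve were ligated and cut, or sham surgery, and then desipramine (DMI), a tricyclic antidepressant, or saline. DMI was given intraperitoneally at 15 mg/kg in 2 injections a day for 3 weeks, starting 4 weeks after surgery by the labels, and one passage of the methods gives a longer interval. All mice, controls included, were operated and injected, so no group was naive, and p-values rest on the spread between 4 mice a group.

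The libraries held 41194238 to 73920332 counts on genes, so that 1 count was worth 0.0137 to 0.0250 CPM. Spinal cord is the tissue given in the labels, with DRG as the cell type. Sensory neuron genes were high in every library, with peripherin (Prph) at 1436 to 1960 CPM, while the 10 genes of a spinal cord list summed to 18.8 to 31.7 CPM. Of these 10, 5 stayed under 1 CPM in every library, among them the motor neuron genes Mnx1 and Chat, and Aqp4, a water channel of astrocytes, was the highest at 10.6 CPM on average. Numbers in the sample titles run from 17 to 20 for Sham-DMI, 21 to 24 for SNI-DMI, 33 to 36 for SNI-Saline and 37 to 40 for Sham-Saline. The numbers are thus consecutive within each of the 4 groups, so an effect of that order and the group cannot be told apart. What the numbers stand for is not given in the titles.

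In mm10 as annotated by GENCODE M21, Ighm (ENSMUSG00000076617) lies at chr12:113418558-113422730 on the minus strand and Igkc (ENSMUSG00000076609) at chr6:70726435-70726966 on the plus strand. Cd79a (ENSMUSG00000003379) lies at chr7:24897381-24902197 and Cd79b (ENSMUSG00000040592) at chr11:106311341-106314762. Cd22 (ENSMUSG00000030577) lies at chr7:30865402-30880342, Ms4a1 (ENSMUSG00000024673) at chr19:11249675-11266241 and Pax5 (ENSMUSG00000014030) at chr4:44524757-44710487. Vpreb3 (ENSMUSG00000000903) lies at chr10:75943057-75949657 and Ly6d (ENSMUSG00000034634) at chr15:74762056-74763620. Exons of Cd22 overlap the antisense gene Gm29439, and exons of Pax5 overlap Gm12462 and 5730488B01Rik on the opposite strand. The strand setting of the counting is not given in the sources used here, so counts of Cd22 and Pax5 are uncertain to that extent. Gm29439 and 5730488B01Rik had 0 counts in every library and Gm12462 had 0 to 9.

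RefSeq promoter entries (GRCm38.p6) matched 4 of the 9 genes, Cd79a, Pax5, Cd22 and Vpreb3, and these 4 are shown for that reason alone. Each line gives up to 250 bases before the RefSeq start, 5′ to 3′ on the gene's strand, without any stretch that GENCODE annotates as an exon of the gene. Capitals mark matches, on either strand, to letters bound by B-lineage factors: the octamer ATGCAAAT, the EBF1 core TCCCNNGGG, the E-box CAGGTG and the PU.1-type AGGAAGT. Pax5 is at chr4:44710695-44710944, minus strand. Cd79a is at chr7:24897247-24897380, plus strand. Cd22 is at chr7:30879029-30879176, minus strand, between the RefSeq start and an exon of longer GENCODE transcripts. Vpreb3 is at chr10:75948050-75948299, plus strand.
Cd79a: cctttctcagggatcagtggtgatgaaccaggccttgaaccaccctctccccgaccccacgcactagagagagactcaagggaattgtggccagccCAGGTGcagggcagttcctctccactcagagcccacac
Pax5: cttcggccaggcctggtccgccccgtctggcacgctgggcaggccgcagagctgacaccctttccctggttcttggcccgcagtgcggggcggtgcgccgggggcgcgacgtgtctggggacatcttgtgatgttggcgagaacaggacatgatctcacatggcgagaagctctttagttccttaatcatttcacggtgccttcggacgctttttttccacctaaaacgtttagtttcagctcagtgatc
Cd22: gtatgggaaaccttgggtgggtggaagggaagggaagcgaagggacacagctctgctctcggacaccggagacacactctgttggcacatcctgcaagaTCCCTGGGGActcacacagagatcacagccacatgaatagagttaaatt
Vpreb3: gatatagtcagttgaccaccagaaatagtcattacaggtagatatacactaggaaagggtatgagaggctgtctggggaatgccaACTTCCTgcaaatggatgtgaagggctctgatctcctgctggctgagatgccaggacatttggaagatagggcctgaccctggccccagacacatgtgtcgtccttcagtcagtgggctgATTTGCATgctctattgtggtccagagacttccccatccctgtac

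The stretch of Cd79a held 1 E-box, that of Cd22 held the EBF1 core on both strands at overlapping positions, and that of Vpreb3 held an octamer 45 bases and a PU.1-type match 165 bases before the start. The Pax5 stretch held none of the 4. Among 32851 RefSeq windows of 250 bases, 1.6% held the octamer, 5.6% the EBF1 core, 17.2% the E-box and 7.69% the PU.1-type letters. The stretches of Cd79a and Cd22 were shorter, at 134 and 148 bases, so these shares are not like for like with them. The Cd79a stretch ended 117 bases before the RefSeq start, and nothing nearer was searched. A match is a description of the letters only.

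The 9 genes had very different levels. Over the 16 libraries Ighm averaged 43.5 CPM, Igkc 3.12, Cd79a 1.27, Pax5 0.471, Cd79b 0.465, Cd22 0.350, Ly6d 0.0848, Ms4a1 0.0656 and Vpreb3 0.0555 CPM. Per kilobase of exon, which allows levels to be set between genes, Ighm stood at 23.1 CPM/kb, Igkc at 5.87, Cd79a at 0.869 and Cd79b at 0.325. The remaining 5 genes stood at 0.0106 to 0.114 CPM/kb, with Ly6d the highest and Ms4a1 the lowest. Ighm alone made up 76.1% to 94.8% of the summed CPM of the 9 genes in a library. The sum of the 9 was 53.8 ± 6.68 CPM in Sham-Saline mice, 51.6 ± 2.97 in SNI-Saline mice, 42.6 ± 7.29 in Sham-DMI mice and 49.4 ± 4.09 in SNI-DMI mice (SD, n = 4 each). Without Ighm and Igkc the 7 other genes summed to 3.63 ± 0.902, 3.03 ± 1.10, 1.97 ± 0.287 and 2.41 ± 0.532 CPM in the same order. The sum of the 9 is mostly Ighm, and the source of the Ighm reads was not tested, so that sum need not follow B-lineage cells. In bulk tissue, fewer B-lineage cells and less RNA per cell cannot be told apart.

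The group mean was highest in Sham-Saline mice for 6 of the 9 genes (Cd79b, Ms4a1, Igkc, Pax5, Vpreb3 and Ly6d) and in SNI-Saline mice for 3 (Cd79a, Ighm and Cd22). It was lowest in a DMI group for every one of the 9, in Sham-DMI mice for 6 and in SNI-DMI mice for Ms4a1, Pax5 and Vpreb3. The members were chosen on these values, and the same share over all tested genes was not computed. Nothing is therefore read from this order.

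**Figure D1:**
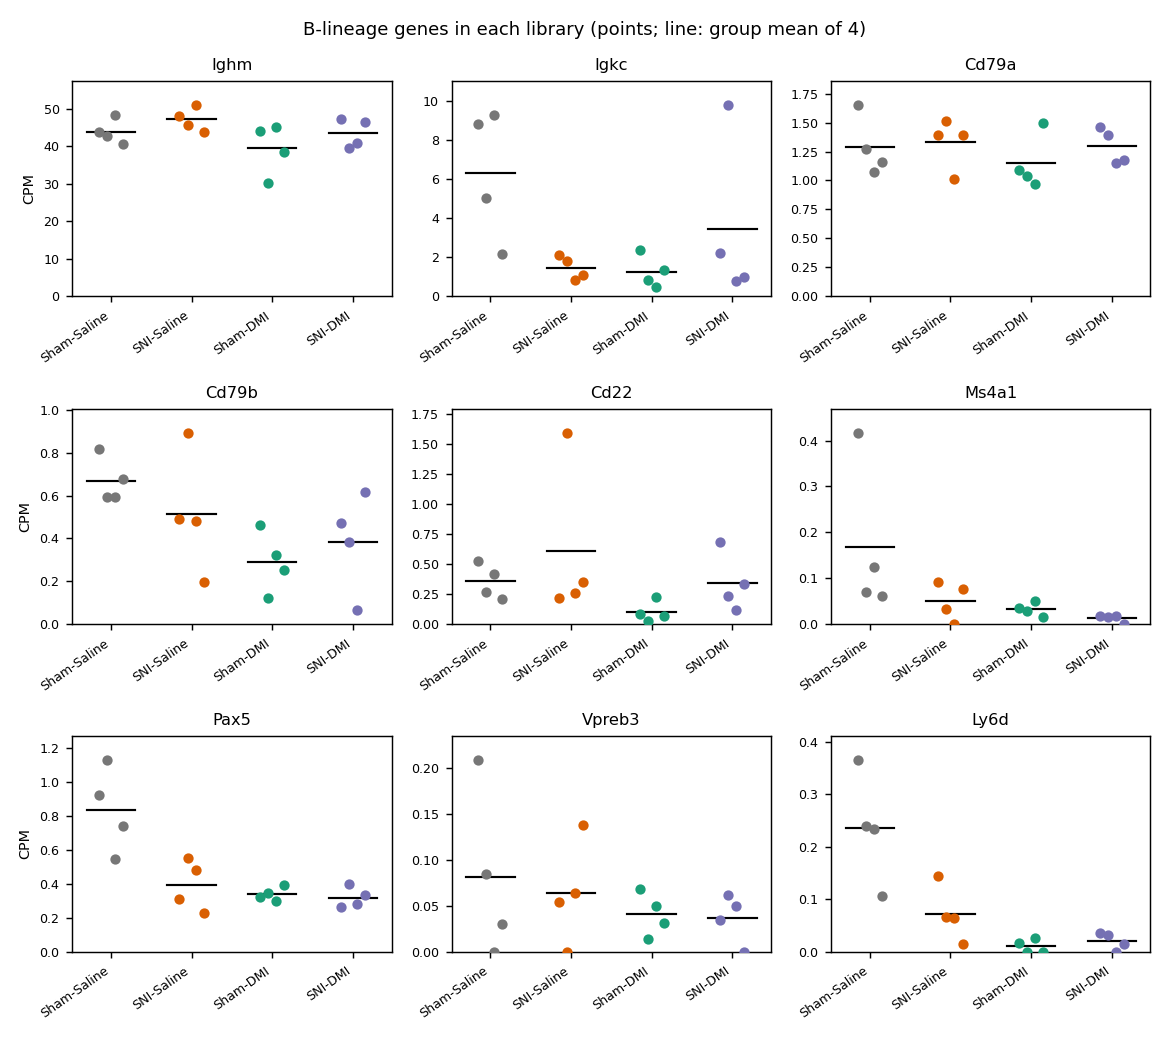
CPM of each of the 9 B-lineage genes (vertical axes, each from 0) in the 16 libraries, as points by group in order of replicate number, with a line at the mean of 4. Ighm and Cd79a keep to a narrow band in all groups, Pax5 and Ly6d are highest in Sham-Saline mice, and single libraries stand high for Igkc (9.80 CPM in SNI-DMI replicate 2) and Cd22 (1.60 CPM in SNI-Saline replicate 2).

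Ighm and Cd79a were the most even members. Ighm, the mu heavy chain constant region, ran from 40.5 to 48.4 CPM in Sham-Saline mice, 43.9 to 51.0 in SNI-Saline mice, 30.1 to 45.0 in Sham-DMI mice and 39.5 to 47.2 in SNI-DMI mice. Its coefficient of variation over the 16 libraries was 11.4%, and the group ranges overlapped in all pairs. Cd79a, the alpha chain of the receptor's signalling pair, was at 1.65, 1.27, 1.08 and 1.16 CPM in Sham-Saline mice, 1.39, 1.51, 1.01 and 1.39 in SNI-Saline mice, 1.09, 1.04, 0.974 and 1.5 in Sham-DMI mice, and 1.46, 1.39, 1.15 and 1.18 in SNI-DMI mice. Every group spanned nearly the same band. The log2 fold change of Cd79a was 0.04 ± 0.18 (SE) for SNI-Saline against Sham-Saline and -0.15 ± 0.19 for Sham-DMI against Sham-Saline, and that of Ighm was 0.10 ± 0.10 and -0.16 ± 0.10.

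Cd79b, the beta chain that pairs with Cd79a, did not keep to such a band. It was at 0.817, 0.593, 0.592 and 0.679 CPM in Sham-Saline mice and at 0.489, 0.896, 0.482 and 0.199 in SNI-Saline mice. It was at 0.461, 0.124, 0.325 and 0.252 in Sham-DMI mice and at 0.471, 0.383, 0.0660 and 0.618 in SNI-DMI mice. All 4 Sham-DMI values lay below all 4 Sham-Saline values, with a log2 fold change of -1.23 ± 0.50, and the other groups overlapped with Sham-Saline.

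Igkc, the kappa light chain constant region, varied more than any other tested member except Cd22, with a coefficient of variation of 104% against 107%. It was at 8.82, 5.02, 9.27 and 2.17 CPM in Sham-Saline mice and at 2.10, 1.79, 0.835 and 1.08 in SNI-Saline mice. It was at 2.36, 0.851, 0.499 and 1.32 in Sham-DMI mice and at 2.21, 9.80, 0.808 and 0.995 in SNI-DMI mice. All 4 SNI-Saline values lay below the lowest Sham-Saline value by a narrow margin, while Sham-DMI overlapped with Sham-Saline by 1 library. The highest value of all was in an SNI-DMI mouse, whose 3 group mates had 0.808 to 2.21 CPM. Igkc was lower by 2.12 ± 0.66 on the log2 scale in SNI-Saline mice and lower by 2.31 ± 0.67 in Sham-DMI mice, each against Sham-Saline. SNI-DMI against SNI-Saline gave 1.26 ± 0.66, which became -0.12 without SNI-DMI replicate 2.

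The ratio of Ighm to Igkc counts ran from 4.03 in SNI-DMI replicate 2 to 90.2 in Sham-DMI replicate 3. Igkc had 20 to 640 counts a library, and Ighm 1803 to 3174. Variable segments, which a rearranged gene joins to its constant region, were counted very unequally beside the 2 constant regions: the Ighv segments had 216 counts over the 16 libraries against 42702 for Ighm, or 1 for each 198, and the Igkv segments had 692 against 3137 for Igkc, or 1 for each 4.53. A library had 1 to 54 counts on Ighv segments. Over the 16 libraries, Spearman's rho was -0.07 between Ighm and Ighv counts and 0.86 between Igkc and Igkv counts. The source of the Ighm reads was not tested.

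In the libraries with the highest Igkc, most variable-segment counts fell on 1 segment, and it was a different one in each mouse. Of 160 listed Igkv segments, 61 had counts in any library. In Sham-Saline replicate 1, Igkv4-91 had 111 of 131 Igkv counts, 84.7% (exact binomial 95% interval 77.4% to 90.4%, for counting error only). Sham-Saline replicate 3 had 123 of 152 counts on Igkv3-2, 80.9% (73.8% to 86.8%). SNI-DMI replicate 2 had 126 of 142 on Igkv12-38, a share of 88.7%. The heavy chain gave the same picture in the same 3 mice: 23 of 29 Ighv counts were on Ighv10-1 in Sham-Saline replicate 1, 45 of 54 on Ighv1-9 in Sham-Saline replicate 3 and 36 of 49 on Ighv1-5 in SNI-DMI replicate 2. These 6 segments had few or no counts elsewhere: the named library held 93.2% to 100% of a segment's counts. Sham-Saline replicate 2, with Igkc at 5.02 CPM, was spread wider, and its most counted segment Igkv16-104 had 14 of 38 counts. Sham-DMI replicate 4, with Igkc at 1.32 CPM, had 31 of 42 counts on Igkv14-111.

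**Figure D2:**
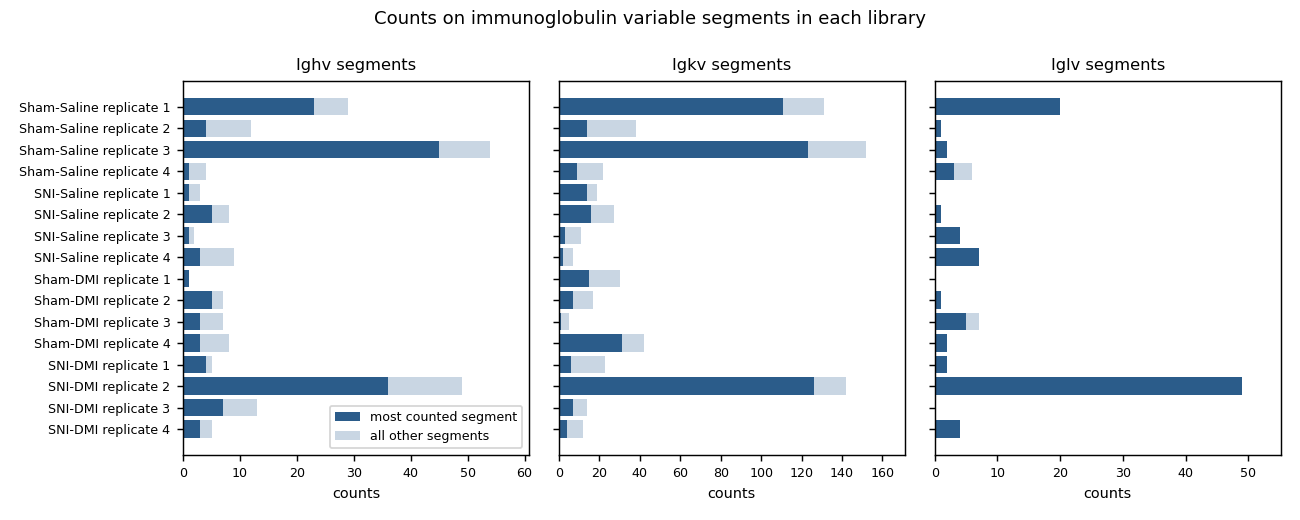
Counts on immunoglobulin heavy (Ighv), kappa (Igkv) and lambda (Iglv) variable segments in each of the 16 libraries (horizontal axes, in counts), split into the most counted segment and all others. Sham-Saline replicates 1 and 3 and SNI-DMI replicate 2 carry the longest Ighv and Igkv bars, and in each most of the bar is 1 segment.

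Among the other constant regions, SNI-DMI replicate 2 also stood apart. Ighg2b, a gamma heavy chain, was at 7.66 CPM there (500 counts) and at 0 to 0.699 CPM in the 15 others, and Iglc1, a lambda light chain, was at 1.58 CPM there with all 49 Iglv counts on Iglv1. Ighg2c was level like Ighm, at 6.94 to 12 CPM, and Igha ran from 0.0803 to 1.47 CPM. Jchain, the joining chain of secreted IgM and IgA, was at 2.64, 1.27, 2.93 and 0.921 CPM in Sham-Saline mice, so the 2 libraries with the highest Igkc in that group also had the highest Jchain. Jchain was at 0.586 to 1.30 CPM in SNI-Saline mice, 0.674 to 0.939 in Sham-DMI mice and 0.709 to 1.44 in SNI-DMI mice. SNI-DMI replicate 2, with the highest Igkc of all libraries, thus had no more than 1.44 CPM of Jchain.

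Pax5, without which B cells lose their identity, was at 0.922, 1.13, 0.545 and 0.740 CPM in Sham-Saline mice. It was at 0.308, 0.554, 0.482 and 0.229 in SNI-Saline mice, at 0.324, 0.343, 0.300 and 0.394 in Sham-DMI mice and at 0.261, 0.398, 0.280 and 0.332 in SNI-DMI mice. Both DMI groups lay wholly below Sham-Saline, and in SNI-Saline mice 1 value (0.554) passed the lowest Sham-Saline value. The 2 DMI groups occupied the same narrow band, from 0.261 to 0.398 CPM. Pax5 was lower by 1.08 ± 0.28 on the log2 scale in SNI-Saline mice and by 1.28 ± 0.29 in Sham-DMI mice, against Sham-Saline. SNI-DMI against Sham-DMI gave -0.10 ± 0.31.

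Cd22, the sialic-acid-binding coreceptor that damps receptor signalling, was at 0.522, 0.268, 0.421 and 0.211 CPM in Sham-Saline mice. It was at 0.217, 1.60, 0.257 and 0.351 in SNI-Saline mice, at 0.0854, 0.0274, 0.225 and 0.0631 in Sham-DMI mice and at 0.680, 0.230, 0.115 and 0.332 in SNI-DMI mice. Sham-DMI was the low group, with 2 to 9 counts a library, and SNI-Saline replicate 2, with 98 counts, was the high library. Cd22 was lower by 1.95 ± 0.76 on the log2 scale in Sham-DMI mice than in Sham-Saline mice. SNI-Saline against Sham-Saline gave 0.78 ± 0.61, and -0.34 without SNI-Saline replicate 2. The same library had the highest Cd79b (0.896 CPM) of the 16.

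The 3 members under the filter were near the floor of 3 counts, which was 0.0412 to 0.0749 CPM a library. Ly6d had 21, 17, 15 and 7 counts in Sham-Saline mice, 8, 4, 4 and 1 in SNI-Saline mice, 1, 0, 1 and 0 in Sham-DMI mice, and 2, 2, 0 and 1 in SNI-DMI mice. It was thus at 0.106 to 0.365 CPM in Sham-Saline mice and at or under 0.0349 CPM in both DMI groups, with no overlap, and only SNI-Saline replicate 1 among the saline-treated injured mice reached the Sham-Saline range. Ms4a1 had 24, 5, 8 and 4 counts in Sham-Saline mice, 5, 2, 0 and 5 in SNI-Saline mice, 2, 2, 2 and 1 in Sham-DMI mice, and 1, 1, 1 and 0 in SNI-DMI mice. Sham-Saline replicate 1 held 24 of the group's 41 counts of Ms4a1. Vpreb3 had 0 to 12 counts in Sham-Saline mice, 0 to 9 in SNI-Saline mice, 1 to 4 in Sham-DMI mice and 0 to 4 in SNI-DMI mice, and no group stood apart. A difference in Vpreb3 was not detectable at this depth.

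5 comparisons followed from the design: SNI under saline, DMI under SNI, DMI under sham, SNI under DMI, and the difference of the DMI effects. Those that share a control group are not independent of each other. A gene was called when its Benjamini-Hochberg adjusted p in the edgeR quasi-likelihood test over all 21371 genes was under 0.1.

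For SNI-Saline against Sham-Saline, which asks what prolonged nerve injury did without drug, 12% of all tested genes were called and 6.18% were called lower. Of the 6 tested members, 2 were called, Igkc and Pax5, both lower, and Igkc alone had all 4 values below the Sham-Saline values, as 7.74% of all tested genes did. The members were chosen on these values, so nothing is read from that count. Igkc was not called without Sham-Saline replicate 1 or 3 or any 1 of the SNI-Saline libraries, nor Pax5 without SNI-Saline replicate 1. Among 79 other B-lineage genes in 7 lists, of which 60 were tested, 5 were called (8.33%), a share below that of all genes. Ebf1, an early B-lineage factor that other tissues also express, fell by 0.30 ± 0.06 on the log2 scale (edgeR adjusted p = 0.0155), from 161 to 188 CPM in Sham-Saline mice to 140 to 148 CPM in SNI-Saline mice. That call was lost once trends on GC content and length were removed (adjusted p = 0.133). Bach2, a repressor that B cells share with neurons, fell by 0.43 ± 0.10 (adjusted p = 0.0263), and Jchain fell by 1.21 ± 0.33 (adjusted p = 0.0433). Fcgr2b, the inhibitory Fc receptor of B cells and macrophages, rose by 0.51 ± 0.15 (adjusted p = 0.0568), and Sdc1 rose by 0.28 ± 0.10 (adjusted p = 0.0991), a call lost without any 1 of 9 libraries, with the replicate block and after removal of the GC and length trends. Jchain was not called without replicate 1 or 3 of Sham-Saline or 2 of SNI-Saline, nor Fcgr2b without 3 or 4 of Sham-Saline or 2 of SNI-Saline. Fcgr2b stood beside a macrophage list of which 5 of 10 genes rose (Aif1, C1qa, C1qb, C1qc and Cd68), with summed levels of 110 to 132 CPM in Sham-Saline mice and 143 to 244 CPM in SNI-Saline mice and no gene of the list at 0 in every library. The part of these macrophage genes in the result was not tested. Without Sham-Saline replicate 3 the number of other B-lineage genes called was 2, and it was 3 when Sham-Saline replicate 1, or else SNI-Saline replicate 2, was left out. The same fits called 682, 1257 and 771 genes in all.

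For Sham-DMI against Sham-Saline, which asks what the drug did without injury, 23.4% of all tested genes were called and 11.9% were called lower. Of the 6 tested members 3 were called, Igkc, Pax5 and Cd22, all lower, and Cd79b and Pax5 had all 4 values below the Sham-Saline values, as 8.51% of all tested genes did. Again these are a description, and Cd22 was not called without replicate 1 or 3 of Sham-Saline, 1, 2 or 4 of Sham-DMI, or 4 of SNI-DMI, nor with the replicate number as a block (adjusted p = 0.111 in edgeR). Of the 60 other B-lineage genes tested, 16 were called (26.7%), 15 of them lower (25%), and 11 (18.3%) had all Sham-DMI values below all Sham-Saline values. The median log2 fold change of the 60 was -0.25, beside -0.02 over all tested genes.

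Among the genes with large falls were Iglc2, Spib and Ighd. Ighd, the delta heavy chain of naive B cells, had 132 counts in Sham-Saline mice and 20 in Sham-DMI mice and fell by 2.55 ± 0.56 (adjusted p = 0.00668).

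Spib, an ETS factor of B cells and plasmacytoid dendritic cells, had 92 and 9 counts and fell by 3.12 ± 0.76 (adjusted p = 0.0106). Iglc2, a lambda light chain, had 58 and 5 counts and fell by 3.25 ± 0.95 (adjusted p = 0.0264). Fcer2a, the low-affinity IgE receptor CD23, fell by 1.46 ± 0.47, and H2-Ob, a chain of the class II modulator of B cells, fell by 1.36 ± 0.40. With so few counts in Sham-DMI mice these folds depend on small numbers, and the standard errors carry that. Iglc2, Spib and Ighd passed the filter on low counts through libraries of other groups, which favours falls over rises among such genes. So did Cd22 among the members, with 2 to 9 counts a library in Sham-DMI mice. The calls counted as lower above include all of these. Fcer2a, H2-Ob, Irf4 and Prdm1 lacked a value in some alternative fits, and whether they share this limit was not tested. With at least 10 counts required in every library, 10 of the other B-lineage genes were called, 1 of them higher. That fit called 5137 genes in all, 2516 of them higher. The number of B-lineage genes it tested was not counted, so no share is given.

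By list, 1 of 13 receptor and coreceptor genes was called, Syk. Among 10 tested surface and effector genes 2 were called, Fcer2a and H2-Ob. Of 10 tested transcription factors 4 were called, Spib, Ikzf1, Foxo1 and Ebf1, and all 10 had negative fold changes. The share of negative values over all tested genes was not computed. Ebf1 fell by only 0.15 ± 0.06 (adjusted p = 0.0944), a call that was lost without any of 14 single libraries and that had a positive value of 0.06 once trends on GC content and length were removed. The Pax5 fold change therefore stood beside a small one of Ebf1, which was 157.7 CPM on average against 0.471 for Pax5. Ikzf1 fell by 0.50 ± 0.13 and Foxo1 by 0.36 ± 0.08, both without overlap.

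Of 10 plasma cell genes 4 were called. Jchain fell by 1.31 ± 0.34 (adjusted p = 0.0144), and the factors Irf4 and Prdm1 fell by 1.19 ± 0.38 and 0.85 ± 0.31, while Xbp1, which secretory cells of many kinds use, rose by 0.15 ± 0.04. Of 6 tested immunoglobulin constant genes only Ighd and Iglc2 were called, and Ighg2c, the highest of them, was not. Of 6 tested survival and homing ligands, Cxcl12 and Kitl were called lower, by 0.26 and 0.25, and Kitl had a value of 0.03 after removal of the GC and length trends. The calls of Kitl, Cxcl12 and Prdm1 were lost under the same removal and in a fit to the 8 libraries compared, and those of Kitl and Cxcl12 also with upper-quartile factors. Kitl was not called without any 1 of 13 of the 16 libraries, nor Cxcl12 without any 1 of 10, and Kitl was also lost with the replicate block. Without single libraries of the 8 compared, the calls of Syk (5 libraries), Fcer2a and Prdm1 (4 each), Irf4 (3) and Cd93 (2) were lost too. Cd93 was the 1 progenitor gene called of 5 tested. Dntt, Rag1, Rag2, Igll1, Vpreb1 and Vpreb2, genes of B-cell progenitors, did not pass the filter. Without Sham-Saline replicate 3 the number of other B-lineage genes called was 9, and without Sham-DMI replicate 1 it was 10. The same fits called 3286 and 3420 genes in all.

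Genes of other blood cells were measured in the same libraries. Of 12 neutrophil genes 8 were called lower in Sham-DMI mice than in Sham-Saline mice (edgeR, adjusted p under 0.1), with a median log2 fold change of -1.53 over the list. Their summed level was 12.2 to 45.0 CPM in Sham-Saline mice, 19 to 56.9 in SNI-Saline mice, 5.12 to 21.4 in Sham-DMI mice and 6.19 to 16.6 in SNI-DMI mice, and the highest member was S100a9, a granule alarmin, at 6.06 CPM on average. None of 12 red cell genes was called, 11 of the 12 had negative values with a median log2 fold change of -0.68, and their summed level was 36.7 to 134 CPM in Sham-Saline mice and 28.3 to 115 in Sham-DMI mice, led by the globin Hbb-bs. None of 12 tested T and NK cell genes was called, with a median of -0.32 and a summed level of 5.41 to 6.17 and 4.13 to 5.4 CPM, led by Lck. One macrophage gene of 10, Mrc1, was lower. One of 10 proliferation genes was lower, and the list summed to 11 to 17 CPM in Sham-Saline mice and 12 to 14.9 in Sham-DMI mice. No gene of these lists was at 0 in every library. All 6 tested genes of the spinal cord list had negative values, with a median of -0.60. Of these 6, Slc5a7 and Slc1a2 were called lower, and the summed level of the list was 26.4 to 28.4 CPM in Sham-Saline mice and 18.8 to 23.8 in Sham-DMI mice, without overlap. Of 10 sensory neuron genes 4 were called higher, Prph, Nefh, Tubb3 and Calca, by 0.19 to 0.25. The share called was 23.4% over all tested genes, 26.7% of the 60 other B-lineage genes and 66.7% of the neutrophil list. It was 0% for the red cell and the T and NK cell lists, and 10% for each of the macrophage and proliferation lists. The spinal cord and sensory neuron lists had 33.3% and 40%. The part of these lists in the result was not tested.

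**Figure D3:**
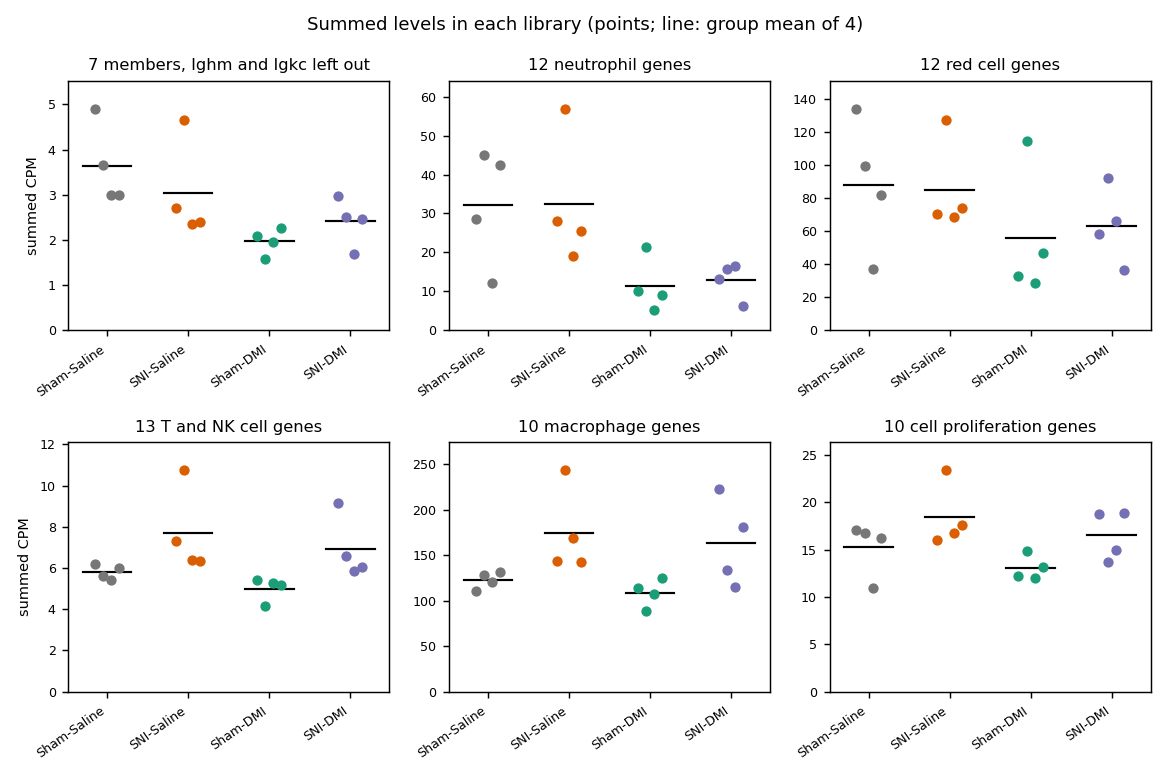
Summed CPM (vertical axes, each from 0) of the 7 B-lineage genes other than Ighm and Igkc, and of genes of other cell types, in the 16 libraries, as points by group with a line at the mean of 4. The B-lineage sum is 1.97 CPM on average in Sham-DMI mice and 3.63 in Sham-Saline mice, the neutrophil sum is 11.4 and 32.1, and the T and NK cell sum is 4.99 and 5.80.

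For SNI-DMI against SNI-Saline, which asks what the drug did in injured mice, 2.93% of all tested genes were called and none of the 6 tested members was, with Igkc at 1.26 ± 0.66, Cd79b at -0.42 ± 0.48, Pax5 at -0.30 ± 0.30 and Cd22 at -0.85 ± 0.62 on the log2 scale. Cd22 was at 0.30 without SNI-Saline replicate 2 and Igkc at -0.12 without SNI-DMI replicate 2. Of the 60 other B-lineage genes 1 was called (1.67%), Xbp1, which rose by 0.19 ± 0.04 (edgeR adjusted p = 0.0630). The call was lost without any of 6 of the 8 libraries compared and once trends on GC content and length were removed (adjusted p = 0.139). DESeq2, run on all genes in the files, called 3 of the 79 listed B-lineage genes and 1843 genes in all. Of the neutrophil list 2 genes were called lower, S100a8 and Retnlg, and its median was -1.40, beside -0.53 for the red cell list and -0.37 for the spinal cord list.

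For SNI-DMI against Sham-DMI, which asks what injury did under the drug, 0.402% of all tested genes were called, and none of the 6 members or the 60 other B-lineage genes was. The members' log2 fold changes were 1.44 ± 0.66 for Igkc, 1.89 ± 0.76 for Cd22, 0.43 ± 0.51 for Cd79b, 0.16 ± 0.19 for Cd79a, 0.15 ± 0.10 for Ighm and -0.10 ± 0.31 for Pax5. Igkc was at 0.07 without SNI-DMI replicate 2. Of the 60 other genes, 44 had positive values, with a median log2 fold change of 0.21 beside 0.0007 over all tested genes. Values were also positive for 12 of 12 T and NK cell genes and 10 of 10 proliferation genes. The same held for 9 of 10 macrophage, 10 of 12 neutrophil and 5 of 12 red cell genes. DESeq2, run on all genes in the files, called 3 of the 79 listed B-lineage genes and 505 genes in all.

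For the difference between the DMI effect under SNI and that under sham, 0% of the 21371 genes were called by edgeR, with 1692 at an unadjusted p under 0.05, and DESeq2 called 16. All 6 members had positive differences, 3.56 ± 0.93 for Igkc, 1.11 ± 0.98 for Cd22, 0.98 ± 0.42 for Pax5, 0.81 ± 0.69 for Cd79b, 0.12 ± 0.26 for Cd79a and 0.04 ± 0.14 for Ighm. Without SNI-DMI replicate 2 the value for Igkc was 2.18, and without SNI-Saline replicate 2 that for Cd22 was 2.23. A DMI effect that differed between sham and injured mice was thus not shown for any tested B-lineage gene.

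**Figure D4:**
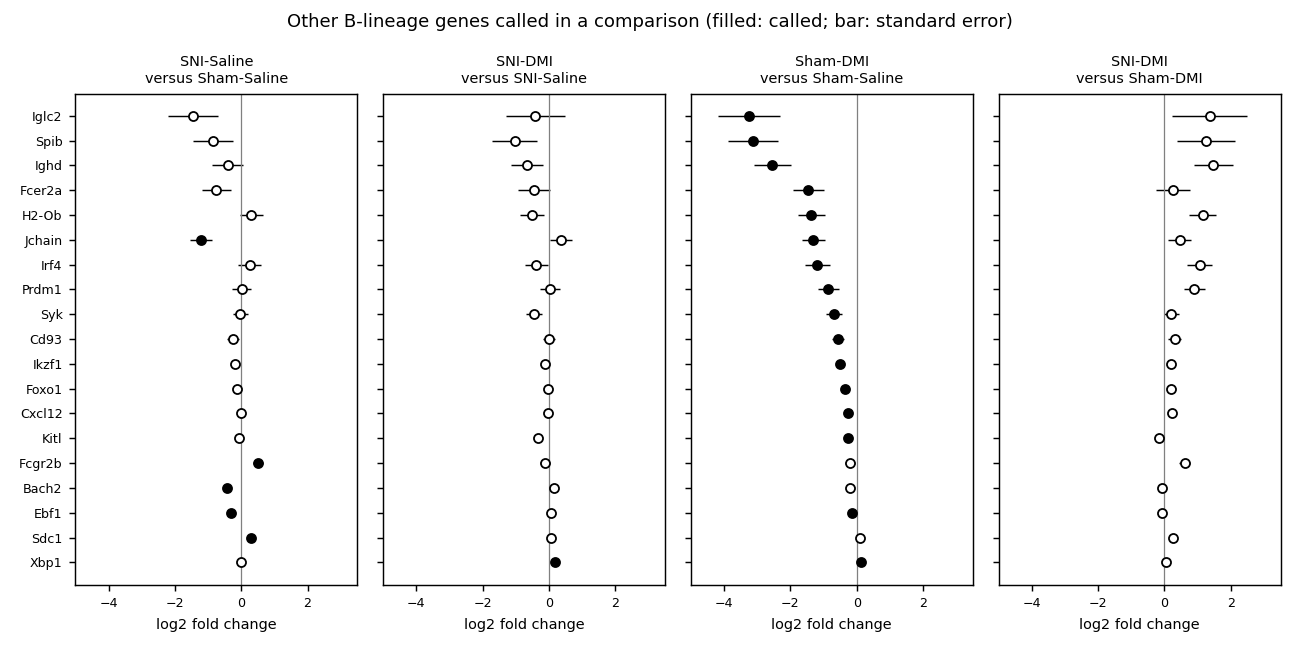
Log2 fold changes (horizontal axes) of the 19 B-lineage genes outside the 9 that were called in at least 1 comparison, with filled points for calls and bars for standard errors, in 4 comparisons. In Sham-DMI against Sham-Saline the values run from -3.25 for Iglc2 to 0.15 for Xbp1, and in SNI-DMI mice against Sham-DMI no point is filled.

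The most abundant genes of the B-lineage lists are ones that neurons, glia, vessels or myeloid cells are also known to express. Akap12 (1562 CPM on average), Cd24a (797), Ebf1 (157.7), Cd81 (124), Cd74 (118), Xbp1 (76.5), Kitl (58.0) and Sdc1 (36.1) were the highest, and Tcf3 (31.8), Cxcl12 (32.0), Bach2 (27.3), Sox4 (11.5), Flt3l (9.64), Cd93 (8.99), Lyn (6.82), Fcgr2b (6.57) and Ciita (2.79) were above Cd79a. Igha averaged 0.791 CPM and Ighg2b 0.626. The 7 genes other than Ighm and Igkc, by contrast, never summed to more than 4.90 CPM in a library.

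Genes whose levels over the 16 libraries were most like the summed CPM of the 9 members had Spearman's rho of 0.741 to 0.832. They were Arhgap27os3 (rho 0.832, Pearson's r 0.795), Nos2 (0.791, 0.599), Gm17275, Xpnpep2, Arhgap30, Nlrp1c-ps, Micall1, Il18r1, Wdfy4 and Gm17194. Against the mean log2 CPM of the 8 members without Ighm, the 10 genes were Adipor2 (rho 0.865, r 0.821), Apobr (0.847, 0.788), Gm47484, Gm24727, Pole, Wfdc21, Lrch1, Dek, Gm16425 and Rab43, all with rho of at least 0.815. The 2 lists shared no gene. These values describe 16 libraries that share 4 groups, and they carry no test.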

How the data were processed

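Counts per gene were deposited by the authors for each of 16 libraries, 1 per mouse. Per the methods and the submitters' processing notes, paired reads of 50 bases from a stranded mRNA kit were aligned by the pipeline NGS-Data-Charmer to build mm10, and the notes name HISAT2, HTSeq and DESeq2. The strand setting and annotation are not given in the sources used here. Rows that name no gene held 18.8% to 20.4% of counted read pairs and were left out. Of 52636 gene IDs, 52489 were matched to GENCODE M21. Multi-mapped reads between near-identical immunoglobulin segments can be lost or split in such counting.

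From the counts, edgeR 4.0.16 in R 4.3.3 was run with TMM factors, filterByExpr and the quasi-likelihood test, with 1 coefficient per group over all 16 libraries. CPM used TMM-scaled library sizes. A gene was called at a Benjamini-Hochberg adjusted p under 0.1 over 21371 genes. The authors' comparison cut-offs, a nominal p under 0.05 with a log2 fold change of at least 0.32 in size, DESeq2 1.42.0, upper-quartile factors, other filters, the replicate block, 8-library fits and leaving out each library were alternatives, and mgcv 1.9.3 fitted GC and length trends. The scripts were tested on simulated counts. The intervals and the floor of 3 counts cover counting error only.

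The members and all gene lists were chosen with earlier results of these data known. 1 gene of the lists is not reported here and was left out of their counts. Named genes were all 9 members, the 3 highest and every called gene of each B-lineage list, the highest gene of lists of other cell types beside a result, the most counted variable segments and the 10 most alike genes by Spearman's rho. Other genes named (tissue markers, overlapping genes, genes under the filter, called neutrophil and macrophage genes) were added after their values were seen.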

Additional observations from a re-analysis of the deposited data

Results flagged for a closer look

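Within each group of 4, the gap between the highest or lowest library and its nearest neighbour was set against the group's range for each B-lineage member and each other immunoglobulin constant gene by Dixon's test at its 95% critical value. By chance about 1 in 20 groups is marked. The members were chosen on these same values, so the marks of Igkc and Cd22 are a description and support nothing. Igkc was at 9.80 CPM in SNI-DMI replicate 2, against 0.808 to 2.21 in the rest of its group. Cd22 was at 1.60 CPM in SNI-Saline replicate 2, against 0.217 to 0.351.

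The 9 other marks were on immunoglobulin constant genes. SNI-DMI replicate 2 held 4 of them, with Ighg2b at 7.66, Iglc1 at 1.58 and Ighg3 at 0.490 CPM above its group, and Igha at 0.413 CPM below the 1.09 to 1.22 CPM of the rest. Sham-DMI replicate 3 had Iglc1 at 1.07 and Ighg2b at 0.699 CPM. SNI-Saline replicate 2 had Ighg3 at 0.733 CPM, SNI-Saline replicate 1 had Ighg2b at 0.362 CPM, and Sham-Saline replicate 1 had Iglc1 at 0.817 CPM. Ighg3 did not pass the filter on low counts. No explanation was tested.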

How the results depend on the processing

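The numbers of genes called moved with the settings. With the study's cut-offs on nominal p and fold change, 1528 genes passed for SNI-Saline against Sham-Saline, 1224 for SNI-DMI against SNI-Saline, 2457 for Sham-DMI against Sham-Saline, 1156 for SNI-DMI against Sham-DMI and 738 for the difference of DMI effects, and 5, 13 and 6 other B-lineage genes passed for SNI-DMI against SNI-Saline, SNI-DMI against Sham-DMI and the difference. DESeq2 called 1843 genes (3 of them B-lineage) for SNI-DMI against SNI-Saline, 505 for SNI-DMI against Sham-DMI (also 3) and 16 for the difference. Fits to the 8 libraries compared gave 1812 for SNI-DMI against SNI-Saline (3 B-lineage) and 9 for SNI-DMI against Sham-DMI. Without a filter, 310 genes and 3 B-lineage genes were called for SNI-DMI against Sham-DMI and 3 B-lineage genes for SNI-DMI against SNI-Saline, where upper-quartile factors gave 2, and with at least 10 counts in every library, which removes low genes, 10 B-lineage genes for Sham-DMI against Sham-Saline and 2 for SNI-DMI against SNI-Saline. Removal of GC and length trends, chosen after seeing the data, gave 1039, 51 and 216 genes for SNI-Saline against Sham-Saline, SNI-DMI against SNI-Saline and SNI-DMI against Sham-DMI, with 3 and 0 B-lineage genes for the first pair of these, and turned Ebf1 to 0.0598 and Kitl to 0.0280 for Sham-DMI against Sham-Saline. The cause was not tested.

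Leaving out 1 library at a time gave 682 to 3286 genes for SNI-Saline against Sham-Saline, 0 to 1842 for SNI-DMI against SNI-Saline, 3286 to 6094 for Sham-DMI against Sham-Saline, 17 to 850 for SNI-DMI against Sham-DMI and 0 to 1 for the difference. Other B-lineage genes called were 2 to 6, 0 to 3, 9 to 16, 0 to 3 and 0 in the same order. For SNI-DMI against SNI-Saline none was called when any of replicates 1, 3 and 4 of SNI-Saline or 1, 2 and 3 of SNI-DMI was left out, 2 without SNI-Saline replicate 2, and 3 when replicate 1 of Sham-Saline or any of 1 and 2 of Sham-DMI was left out. For SNI-DMI against Sham-DMI, 1 to 3 were called without Sham-Saline replicate 1, SNI-Saline replicate 2, Sham-DMI replicate 1 or SNI-DMI replicate 2 or 3.

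Deviations of same-numbered libraries from their group means had correlations of -0.08 to 0.18, over 0.1 in 5 of 24 pairs. Libraries with different numbers were not compared in this way, so whether same-numbered libraries share more than a number was not tested. With the replicate number as a block, 172 genes were called for SNI-DMI against SNI-Saline, and the Cd22 value for Sham-DMI against Sham-Saline was no longer past the threshold. The other counts of calls stayed within 1.5 times.

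Of 674 recomputed values of the 30 member fold changes, 668 moved by less than the spread between mice, and the 6 that moved more were Igkc without SNI-DMI replicate 2 and Cd22 without SNI-Saline replicate 2. Of the 674, 16 changed sign, with 0 of these among called fold changes. Of the 22 calls of other B-lineage genes, 9 held in every alternative that gave a value: Bach2 for SNI-Saline against Sham-Saline, and Jchain, Xbp1, H2-Ob, Spib, Ikzf1, Foxo1, Ighd and Iglc2 for Sham-DMI against Sham-Saline. Besides the fits that left out a library, 7 gave a value for Jchain, but only 4 for Iglc2, 5 for Spib and 6 for H2-Ob and Ighd. The fit with at least 10 counts in every library left out Iglc2, Spib and Ighd, so it could not test their calls. The others were lost in at least 1. Of 494 recomputed values of these genes 94 lost the call and 2 changed sign. Ms4a1, Vpreb3 and Ly6d were limited by depth, with at most 24 counts in a library.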
